A study of Mus musculus with 45 samples.

Results

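Wave-front boundaries in homozygous slow RNA polymerase II mutant (slow/slow) and wild-type (WT/WT) mouse embryonic stem cells (ESCs) were compared 30 min after release from a transcription block. Transcripts were taken when their annotated start and end lay at least 60 kb apart and a boundary had been called in all 3 WT/WT and all 3 slow/slow samples. This gave 11042 of the 122968 transcripts in the tables, or of 13811 that were long enough. Of the other long transcripts, 2083 had a boundary in some of the 6 samples and 686 in none. The 11042 transcripts belonged to 3786 genes and 9722 start sites, and 8296 of them were protein coding. Their median length was 113.9 kb. As many as 52 transcripts came from a single gene and overlap one another, so transcripts were never treated as replicates and each comparison was made over samples.

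The series holds 45 samples of ESCs kept in 2i medium, of which 27 have a boundary table. All of those received the inhibitor DRB for 4 h according to the labels, were washed free of it, and were harvested after 5, 15 or 30 min. The uridine analogue 4sU was present during the last 10 min. The study's methods also give 4 h of DRB, whereas its results text gives 3 h. WT/WT cells carry unchanged Polr2a, the gene of the largest RNA polymerase II subunit. Slow/slow cells carry the R749H knock-in on both alleles, and WT/slow cells on 1 allele, introduced by homologous recombination. Each genotype had 3 replicates at each time, described as biological in the study's methods. The labels do not say how they were separated, so p-values measure the spread between these samples.

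DRB blocks the kinase that lets paused RNA polymerase II enter productive elongation. On its removal, polymerases leave the start sites together, and the farthest point that newly labelled RNA has reached marks the front of a wave. Fronts are followed in long genes, because a short gene is crossed before the harvest.

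The substituted residue lies in exon 14 of the 29 exons of Polr2a (ENSMUST00000058470), on the minus strand of chromosome 11 in GRCm38. The codon occupies bases 69743356 to 69743358. It is shown on the coding strand as the reference genome has it, within chr11:69743341-69743373, with the codon of residue 749 in capitals. The boundary tables hold no reads, so the substitution itself was not examined here.
Polr2a codon 749: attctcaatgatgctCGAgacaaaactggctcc

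A boundary is the distance from the annotated start to the called wave end, given in steps of 100 bases. Over the 6 samples boundaries ran from 0.2 to 59.3 kb. In transcripts of at least 200 kb the highest boundary of a sample was 51 to 58.8 kb, so fronts farther out, if any, were not recorded. The value 2500 bases was by far the commonest, and what it stands for is not given in the sources used here. In what follows a boundary above 2.5 kb is called a wave-front or front. The name is a label only, and whether each such boundary marks a moving wave was not tested. The tables hold distances and no counts, so the sequencing depth behind a boundary is unknown.

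Slow/slow replicate 2 stood apart in the number of calls. It had a boundary for 41989 transcripts of any length, against 52749 in slow/slow replicate 1 and 53283 in replicate 3. The WT/WT samples had 52393, 55046 and 55029. Among transcripts of at least 60 kb, slow/slow replicate 2 had 11197 calls, and the other 5 samples had between 12576 and 12870. No pair of samples held identical values. Results are therefore also given without slow/slow replicate 2. Boundaries correlated weakly between replicates across transcripts, which are not independent. Spearman's rho was 0.330 to 0.358 within WT/WT, 0.281 to 0.391 within slow/slow and 0.108 to 0.289 between the genotypes.

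Most long transcripts had their boundary at 2.5 kb in both genotypes at 30 min. The share was 61.2%, 69.7% and 72.5% in WT/WT replicates 1, 2 and 3, a mean of 67.8% ± 5.89 (SD, n = 3). It was 64.5%, 70.5% and 65.2% in slow/slow, a mean of 66.7% ± 3.26 (SD, n = 3). All slow/slow values lay inside the WT/WT range. The difference, slow/slow minus WT/WT, was -1.05 percentage points, smaller than the spread between replicates (exact two-sided permutation test, p = 0.9). With 3 samples against 3 this exact test cannot go below p = 0.1. Without slow/slow replicate 2 the difference was -2.52 points. Its sign turned, to 1.30 points, without WT/WT replicate 3, to 0.0571 without slow/slow replicate 1, to 0.0264 with 1 transcript per gene and to 0.209 with a boundary required in that sample only. In heterozygous WT/slow cells the share was 67.4%, 73.7% and 73.1%.

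Boundaries below 2.5 kb were rare. They made up 1.49%, 1.61% and 1.65% in WT/WT and 1.503%, 1.47% and 1.42% in slow/slow. Wave-fronts accounted for the rest, 4120, 3173 and 2851 transcripts in WT/WT and 3753, 3098 and 3682 in slow/slow. The counts of the genotypes overlapped, and WT/WT replicate 1 had the most wave-fronts of the 6 samples.

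**Figure D1:**
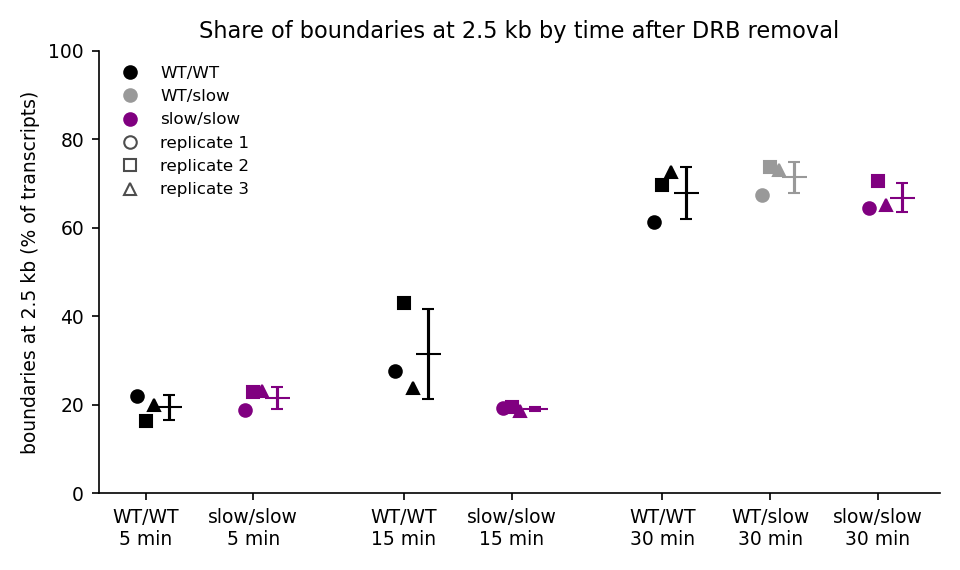
Percent of long transcripts with a boundary at 2.5 kb, by genotype and minutes after DRB removal. Points are replicates, bars are mean ± SD (n = 3), and the 30 min samples lie between 61.2% and 73.7% with the groups overlapping.

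The share at 2.5 kb had been far lower at the earlier times. At 5 min, among the same transcripts where called, it was 21.9%, 16.3% and 20.01% in WT/WT and 18.8%, 22.8% and 23.1% in slow/slow. At 15 min it was 27.6%, 43.0% and 23.8% in WT/WT against 19.2%, 19.4% and 18.6% in slow/slow, so that every slow/slow sample was below every WT/WT sample. Over the 10466 transcripts that also had a boundary in all 6 samples at 15 min, the share grew by 36.0 points in WT/WT and by 47.0 points in slow/slow between 15 and 30 min. The growth differed by 11.03 points, which did not pass the threshold when genotype labels were permuted within each time (exact permutation test, two-sided, p = 0.18). The smallest p those 400 relabellings allow is 0.005. The difference moved with single samples, to 6.53 points without WT/WT replicate 2 (exact permutation p = 0.23), to 17.0 without WT/WT replicate 3 (exact permutation p = 0.06) and to 9.004 without slow/slow replicate 2 (exact permutation p = 0.38).

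Where a wave-front was called, the mutant cells had it farther from the start. The median boundary above 2.5 kb was 7.0, 5.6 and 6.9 kb in WT/WT, a mean of 6.5 kb ± 0.781 (SD, n = 3). It was 10.8, 10.9 and 9.3 kb in slow/slow, a mean of 10.3 kb ± 0.896 (SD, n = 3). The groups did not overlap. The difference of 3.83 kb exceeded the SD of either group and gave the smallest p that 3 samples against 3 allow (exact two-sided permutation test, p = 0.1). WT/slow samples lay between the groups with 8.0, 7.7 and 8.1 kb. Without slow/slow replicate 2 the difference was 3.05 kb.

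The genotypes were farthest apart in the upper part of the distribution. The third quartile of the wave-fronts was 14.0, 13.1 and 17.1 kb in WT/WT and 24.4, 23.3 and 24.5 kb in slow/slow, whereas the lower quartile was 4.0, 3.8 and 3.9 kb against 4.5, 5.3 and 4.2 kb. The highest boundaries were alike, between 54.9 and 59.1 kb in WT/WT and between 58.1 and 59.3 kb in slow/slow. All 6 samples thus held fronts close to the upper end of the range.

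The share of boundaries above 30 kb, a distance chosen after seeing the data, described this upper part. It was 2.30%, 1.87% and 2.77% in WT/WT, a mean of 2.31% ± 0.453 (SD, n = 3). It was 6.03%, 5.07% and 6.61% in slow/slow, a mean of 5.90% ± 0.778 (SD, n = 3). The groups were far apart, by 3.59 points (exact two-sided permutation test, p = 0.1, the smallest possible). WT/slow samples had 3.35%, 3.16% and 4.10%, above each WT/WT and below each slow/slow value. At 15 min the order was not seen. The same share was then 31.7%, 21.5% and 34.9% in WT/WT and 34.9%, 37.3% and 21.3% in slow/slow.

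**Figure D2:**
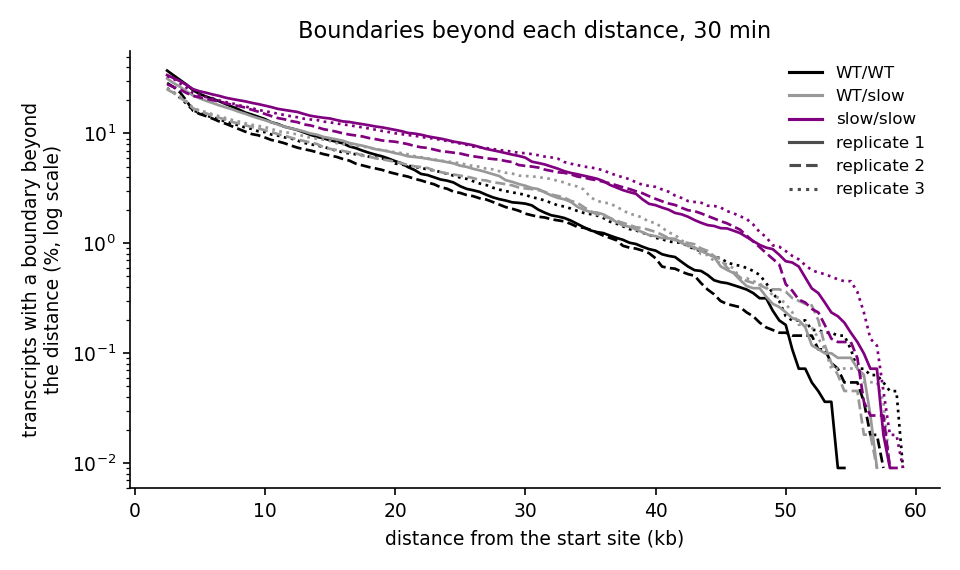
Percent of long transcripts with a boundary beyond each distance from the start site at 30 min, on a log scale, 1 line per sample. Each slow/slow line runs above each WT/WT line from 7 to 53 kb, with WT/slow lines between or among them.

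By distance class, the groups stopped overlapping at 20 kb. Boundaries above 2.5 and up to 5 kb were found in 14.4%, 13.7% and 10.4% of transcripts in WT/WT and in 9.80%, 6.71% and 10.9% in slow/slow, with overlap. Between 5 and 10 kb the shares were 9.36%, 5.85% and 5.09% against 6.26%, 6.27% and 6.46%, also overlapping. Between 10 and 20 kb they were 7.93%, 4.89% and 4.96% against 7.15%, 6.67% and 5.94%. From 20 kb on, each slow/slow value was above each WT/WT value. Between 20 and 30 kb the shares were 3.31%, 2.45% and 2.56% against 4.75%, 3.34% and 3.43%. Between 30 and 40 kb they were 1.44%, 1.13% and 1.65% against 3.804%, 2.53% and 3.34%. Between 40 and 50 kb they were 0.679%, 0.580% and 0.906% against 1.54%, 2.12% and 2.42%. Beyond 50 kb few fronts remained in any sample, at most 0.217% in WT/WT and at most 0.851% in slow/slow.

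The same order was seen in transcripts of different lengths. In the 4591 transcripts of 60 to 100 kb, the share above 30 kb was 2.74%, 1.85% and 2.83% in WT/WT and 5.79%, 5.03% and 6.06% in slow/slow. In the 3709 of 100 to 200 kb it was 1.75%, 1.75% and 2.29% against 5.96%, 5.90% and 6.77%. In the 2742 of at least 200 kb it was 2.30%, 2.04% and 3.32% against 6.53%, 4.01% and 7.33%. The groups did not overlap in any of the 3 length classes. The share at 2.5 kb overlapped between genotypes in the shortest class, with 62.5%, 72.0% and 75.02% in WT/WT against 67.8%, 70.7% and 69.1% in slow/slow, in the middle class, with 64.8%, 72.4% and 74.9% against 64.6%, 69.6% and 64.7%, and in the longest, with 54.1%, 62.1% and 65.2% against 58.9%, 71.3% and 59.4%. On either side of the length limit, 2038 transcripts of 50 to 60 kb had 63.2%, 74.6% and 78.9% at 2.5 kb in WT/WT and 71.1%, 73.3% and 71.3% in slow/slow. The 1546 of 60 to 70 kb had 60.9%, 73.0% and 75.5% against 67.9%, 70.4% and 69.8%.

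Which transcripts still held a wave-front differed between samples of a single genotype as well as between genotypes. Of the 11042 transcripts, 8028 had a front in at least 1 of the 6 samples and 3014 in none, 2901 of the latter being at 2.5 kb in all 6. A front in all 3 replicates was found for 1145 transcripts in WT/WT and 1126 in slow/slow. These lists shared 276 transcripts of 191 genes. Of the WT/WT list 24.1% were thus also in the slow/slow list, which held 10.2% of all long transcripts, and of the slow/slow list 24.5% were in the WT/WT list, which held 10.4% of all.

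The lists differed in length far from the start. Above 10 kb in all 3 replicates there were 249 transcripts in WT/WT and 392 in slow/slow, above 20 kb 69 and 169, and above 30 kb 24 and 82. Above 10 kb the lists shared 36 transcripts. These made up 14.5% of the WT/WT list, against 3.55% of all long transcripts in the slow/slow list, and 9.18% of the slow/slow list, against 2.26% of all in the WT/WT list. Above 20 kb they shared 3. These made up 4.35% of the WT/WT list, against 1.53% of all long transcripts in the slow/slow list. They made up 1.78% of the slow/slow list, against 0.625% of all in the WT/WT list. Above 30 kb they shared 0. The WT/WT and slow/slow lists then held 0.217% and 0.743% of all long transcripts, so a shared count of 0 does not show that they differ.

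**Figure D3:**
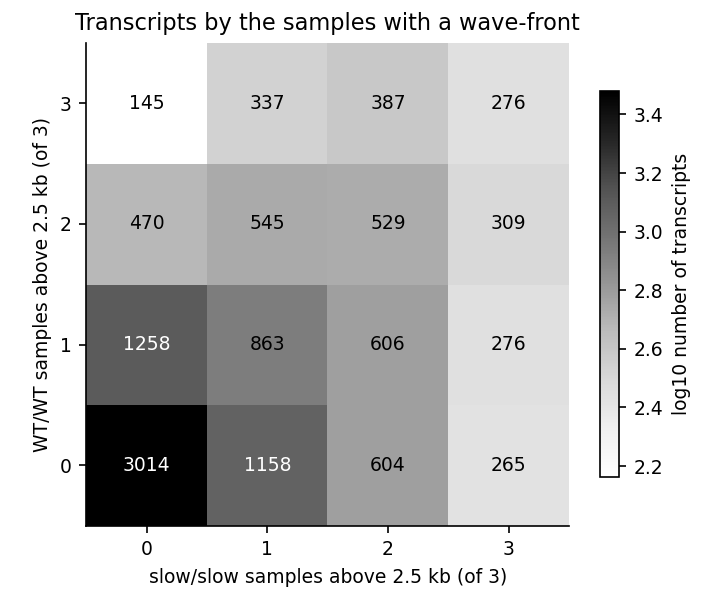
Number of long transcripts by how many of the 3 slow/slow samples (horizontal axis) and of the 3 WT/WT samples (vertical axis) had a boundary above 2.5 kb, with grey shades on a log10 scale. Most transcripts held a front in 0 or 1 sample of each genotype, and 276 held one in all 6.

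Fronts held in slow/slow cells alone lay farther out than those held in WT/WT cells alone, as slow/slow fronts did over all long transcripts. A front in all 3 slow/slow samples with all 3 WT/WT samples at 2.5 kb was found for 252 transcripts of 144 genes, 2.28% of the long transcripts. Over the 37462 transcripts of any length with 6 boundaries that share was 1.75%. The reverse, a front in all 3 WT/WT samples with slow/slow at 2.5 kb, was found for 135 transcripts of 98 genes, 1.22% against 1.53% of transcripts of any length. The 252 had median boundaries of 16.9, 12.6 and 13.8 kb in the 3 slow/slow samples, and 45 of them lay above 20 kb in each. The 135 had median boundaries of 6.1, 5.5 and 5.0 kb in the 3 WT/WT samples, and 3 of them lay above 20 kb in each. These counts move with each sample. Without slow/slow replicate 2 they were 527 and 263, but without WT/WT replicate 2 they were nearly equal at 295 and 287, and without WT/WT replicate 3 they were 370 and 339. With 1 transcript per gene they were 59 and 49. These alternatives were chosen after seeing the data.

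The transcripts with fronts in slow/slow alone were not set apart by length. Their median length was 107 kb, against 103 kb for those with fronts in WT/WT alone and 113.9 kb for all long transcripts. Their first 60 kb had a median GC content of 43.6% and 22.5% of bases masked as repeats, against 42.3% and 26.6% for all. Median exon numbers were 13 in the slow/slow list, 11 in the WT/WT list and 12 over all. The 276 transcripts with a front in all 6 samples had a shorter median intron 1, 17.8 kb against 27.9 kb, and fewer were protein coding, 66.7% against 75.1%. At 15 min, 9.36% of their WT/WT boundaries and 14.7% of their slow/slow boundaries were at 2.5 kb, against 31.4% and 19.1% over all. The transcripts with fronts in WT/WT alone had 27.3% of WT/WT and 41.4% of slow/slow boundaries at 2.5 kb at that time, and those with fronts in slow/slow alone had 23.6% and 15.2%. None of these features was tested.

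Over the 276 transcripts with a front in all 6 samples, both genotypes could be compared on the same transcripts. The median front lay at 10.2, 9.6 and 10.8 kb in WT/WT, a mean of 10.2 kb ± 0.577 (SD, n = 3). It lay at 13, 14.8 and 15.8 kb in slow/slow, a mean of 14.6 kb ± 1.42 (SD, n = 3). Each slow/slow sample was above each WT/WT sample. The difference was 4.35 kb (exact two-sided permutation test, p = 0.1, the smallest possible) and 3.98 kb without slow/slow replicate 2. It was 2.63 kb without slow/slow replicate 3. Without WT/WT replicate 2 it was 4.92 kb (exact permutation p = 0.2). With 2 samples against 3 that p does not show whether the groups overlapped. They did overlap over the 36 transcripts with all fronts above 10 kb (1.65 kb, exact permutation p = 0.7). The transcripts were far from uniform. The mean front was farther in slow/slow for 158 (57.2%) and nearer for 118, the median difference being 2.42 kb with quartiles of -3.7 and 11.6 kb. In 45 transcripts (16.3%) all slow/slow samples lay above all WT/WT samples, and in 20 (7.25%) below. Over all transcripts of any length tested below with limma, whose boundaries include 2.5 kb, these shares were 4.74% and 4.02%.

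**Figure D4:**
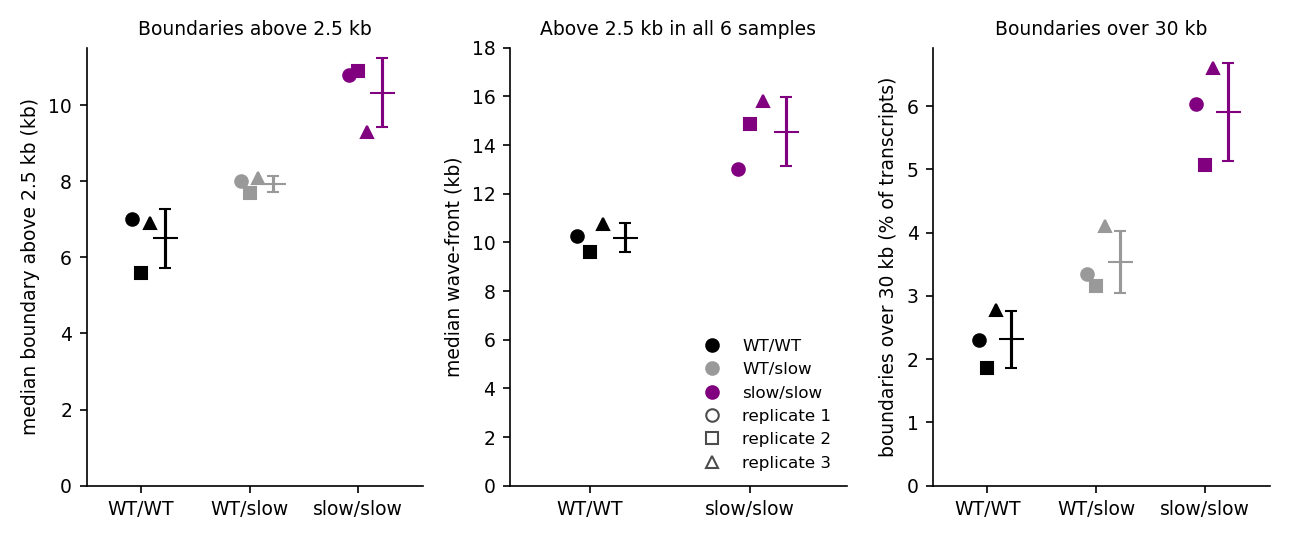
Wave-fronts at 30 min by genotype, as the median boundary above 2.5 kb (left, kb), the median over the 276 transcripts with a front in all 6 samples (middle, kb) and the percent of boundaries over 30 kb (right). Points are replicates and bars mean ± SD (n = 3), and slow/slow lies above WT/WT in each panel.

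Fronts of single transcripts were followed from 15 to 30 min within each genotype. In WT/WT, 4284 transcripts had a front in all 3 samples at 15 min. Of these, 686 (16.0%) had one in all 3 at 30 min, against 10.4% of all long transcripts, and 1561 (36.4%) were at 2.5 kb in all 3, against 44.2%. In slow/slow, 7069 had a front in all 3 samples at 15 min, of which 747 (10.6%) had one at 30 min, against 10.2% of all long transcripts, and 3233 (45.7%) were at 2.5 kb, against 42.9%. In slow/slow both shares were thus close to those of all long transcripts. Among fronts present at both times, those of WT/WT cells mostly lay nearer the start at the later time, 492 nearer against 190 farther, with a median change of -3.48 kb. In slow/slow, 367 lay nearer and 378 farther, with a median change of 0.233 kb.

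The change between times was compared between genotypes over 154 transcripts with a front in all 12 samples. Their median front in WT/WT was at 15.7, 21.1 and 16.4 kb at 15 min and at 10, 9.95 and 10 kb at 30 min, so that it fell by 7.75 kb on average. In slow/slow it was at 14.8, 17.6 and 15.6 kb at 15 min and at 15.7, 15.4 and 15.8 kb at 30 min, a change of -0.3 kb. The genotypes overlapped at 15 min and were clearly apart at 30 min. Their changes differed by 7.45 kb (exact permutation of genotype labels within each time, two-sided, p = 0.025). The 154 were selected for still having a front, so they do not stand for all long transcripts. Without slow/slow replicate 2 the difference was 12.8 kb (exact permutation test, p = 0.01). The threshold was not passed without WT/WT replicate 3 (7.99 kb, exact permutation p = 0.05), without slow/slow replicate 3 (5.37 kb, exact permutation p = 0.08) or over transcripts of at least 100 kb (6.03 kb, exact permutation p = 0.105). Nor was it passed over 12 transcripts with all fronts above 10 kb (14.6 kb, exact permutation p = 0.055), or with replicate numbers as a block (exact permutation p = 0.25, the smallest that 3 pairs allow).

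Single transcripts were tested with limma over every transcript of any length with 6 boundaries that were not all equal. Among the 8141 long transcripts tested, 84 had a farther boundary in slow/slow at an adjusted p under 0.05, or 1.03%. Over all 27054 transcripts tested the share was 0.728%. A nearer boundary was called for 24 of them, 0.295%, against 0.359% over all transcripts tested. With replicate numbers entered as a block limma called 0 in either direction (lowest adjusted p 0.081), while 476 of the long transcripts (5.85%) and 1192 of all tested (4.41%) had an unadjusted p under 0.05. The 84 belonged to 56 genes and the 24 to 18 genes. Of the 84, 39 had all WT/WT samples at 2.5 kb and a front in each slow/slow sample, and 72 had a slow/slow mean above 20 kb. Their median difference was 32.1 kb. The 24 had a median difference of -16.0 kb. Without slow/slow replicate 2 the counts were 223 farther and 21 nearer, and without WT/WT replicate 3 they were 68 and 77. Both directions together made 244 of 7705 long transcripts tested in the first case, against 484 of 25326 of any length. In the second they made 145 of 7951, against 447 of 26541. Counting transcripts whose groups did not overlap, 537 (6.6%) lay farther in each slow/slow sample, against 4.74% over all transcripts tested, and 331 (4.07%) lay nearer, against 4.02%. With 1 transcript per gene limma called 12 farther and 3 nearer. Together these were 15 of 2753 long transcripts tested, against 52 of 8360 of any length, so long transcripts were not called more often.

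The 8 farther transcripts with the lowest adjusted p, 1 per gene, were singled out after their values were seen. All 8 were at 2.5 kb in each WT/WT sample at 30 min. Ino80d, which encodes a subunit of the INO80 chromatin remodelling complex, had fronts at 50.3, 53.2 and 52.3 kb in slow/slow (adjusted p = 0.000192). Mast2, a kinase that associates with microtubules, had fronts at 44.9, 46.6 and 46.4 kb, and Clasp1, which stabilises growing microtubule ends, at 34.6, 34.8 and 36.0 kb. In each of these genes the slow/slow replicates lay close to one another and far from the WT/WT value. Ehbp1, an endocytic adaptor, had fronts at 35.5, 34.6 and 36.4 kb, and Cpeb3, an RNA-binding regulator of translation, at 30.6, 31.5 and 30.1 kb. Their adjusted p was also 0.000192. Erbin, a scaffold at the basolateral membrane, followed with 48.4, 44.6 and 45.5 kb, Alcam, a cell adhesion molecule, with 40.5, 41.7 and 38.1 kb, and Nkd1, an inhibitor of WNT signalling, with 42.3, 42.0 and 38.8 kb (adjusted p at most 0.00102). These 8 calls held under each alternative of the limma test that included them, except with the replicate block.

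At 15 min these transcripts had been elsewhere. WT/WT boundaries of Ino80d were then at 31.6, 36.1 and 27.8 kb and those of Cpeb3 at 26.7, 26.1 and 36.0 kb, against 2.5 kb at 30 min. The slow/slow boundaries of Ino80d at 15 min were at 11.2, 13.4 and 10.5 kb and those of Cpeb3 at 7.8, 14.9 and 30 kb. In Ino80d the slow/slow front was thus farther out at 30 than at 15 min in every sample, and in both genes the WT/WT front was the farther at 15 min by its mean. The named Nkd1 transcript gave a different course. In WT/WT it stood at 2.5 kb at 15 min too, in all 3 samples, and in slow/slow at 25.1, 24.7 and 27.4 kb. A shorter Nkd1 transcript, ENSMUST00000169179, was also called farther by limma and did not share this course. At 15 min it was at 12.2, 15 and 9.8 kb in WT/WT and at 18.8, 18.4 and 21.1 kb in slow/slow. In WT/slow cells at 30 min Ino80d was at 2.5, 41.9 and 31.2 kb. The named Nkd1 transcript was then at 3.9, 2.5 and 3.9 kb in WT/slow, and the shorter Nkd1 transcript at 35.3, 2.5 and 33.5 kb.

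Nearer boundaries in slow/slow, also singled out after their values were seen, were fewer. Chn1, a Rac GTPase-activating protein, had fronts at 52.7, 49.5 and 51.7 kb in WT/WT and boundaries at 10.6, 10.1 and 2.5 kb in slow/slow (adjusted p = 0.00594). Nme7, of the nucleoside diphosphate kinase family, had 34.0, 33.5 and 28.5 kb against 3.6, 2.4 and 2.5 kb (adjusted p = 0.00559). Stx17, a SNARE of autophagosomes, had 27.5, 33.7 and 26.8 kb against 2.5, 2.5 and 2.6 kb (adjusted p = 0.0119). In all 3 genes the genotypes were widely apart, in the direction opposite to most calls. Stox2, of a winged-helix protein family, had 17.5, 19.3 and 15.8 kb against 2.5, 2.5 and 3.9 kb (adjusted p = 0.0103). Without WT/WT replicate 1 Stx17 and Stox2 lost their calls, with adjusted p of 0.0519 and 0.0626.

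Among transcripts with a front in all 6 samples, taking the longest of each gene, 6 were named for the largest rise in mean without overlap. Cdh4, which encodes R-cadherin, had fronts at 6.1, 5.3 and 4.1 kb in WT/WT and at 36.3, 31.8 and 36.2 kb in slow/slow. It rose by 29.6 kb (SE 1.48, adjusted p = 0.0046). Usp6nl, a GTPase-activating protein of endocytosis, had 6.2, 3.5 and 12.1 kb against 40.1, 36.2 and 47.0 kb (33.8 kb farther, adjusted p = 0.0352). Scaper, a protein of the endoplasmic reticulum that binds cyclin A, had 13.7, 12.3 and 7.8 kb against 33.9, 45.5 and 43.7 kb (29.8 kb farther, adjusted p = 0.0499). Cdh4 kept its call with any sample left out, whereas Usp6nl lost it without any 1 of 3 samples and Scaper without any 1 of 5, the adjusted p reaching 0.137 and 0.156. The other 3 did not pass. Hlcs, which attaches biotin to carboxylases, was at 2.6 kb in each WT/WT sample and at 43.0, 20.3 and 47.5 kb in slow/slow (adjusted p = 0.285, and 0.00331 without slow/slow replicate 2). In WT/WT replicates 1 and 3 Hlcs was at 2.6 kb at 5 and 15 min too, so the boundary did not move there. Lnx1, a ubiquitin ligase, had 4.8, 4.8 and 8.2 kb against 49.4, 34.4 and 32.6 kb (adjusted p = 0.0924). A shorter Lnx1 transcript, ENSMUST00000121690, noticed after the values were seen, had the same WT/WT fronts and 49.6, 34.4 and 41.1 kb in slow/slow, and was called (35.8 kb farther, adjusted p = 0.0412). Kansl1l, a relative of a chromatin acetylation subunit, had 14.6, 5.8 and 19.5 kb against 36.8, 40.7 and 46.4 kb (adjusted p = 0.106).

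The 6 with the largest drop in mean held 1 call. Mid1, an X-linked ubiquitin ligase on microtubules, had fronts at 33.8, 33.8 and 29.1 kb in WT/WT and at 12.2, 8.9 and 4.0 kb in slow/slow, and fell by 23.9 kb (SE 2.61, adjusted p = 0.0352). The call was lost without any 1 of 4 samples, the adjusted p reaching 0.135. Epb41, a linker of membrane and spectrin skeleton, had 41.2, 39.9 and 40 kb against 22.0, 21.8 and 10.2 kb in the transcript named by the rule (adjusted p = 0.107, and 0.00478 without slow/slow replicate 3). Another Epb41 transcript with its own start site, ENSMUST00000105981, noticed after the values were seen, was called in the other direction, with 2.5, 2.5 and 4.5 kb in WT/WT and 31.4, 38.4 and 35.0 kb in slow/slow. Lclat1, an acyltransferase of cardiolipin metabolism, varied widely within WT/WT at 12.4, 43.2 and 26.8 kb, against 3.4, 3.7 and 5.6 kb (adjusted p = 0.668). Afg1l, a mitochondrial ATPase, had 30.6, 27.6 and 32.1 kb against 3.2, 18.4 and 4.2 kb (adjusted p = 0.262, and 0.0117 without slow/slow replicate 2). Faf1 and Spata5 were not called either (adjusted p = 0.668 for both).

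**Figure D5:**
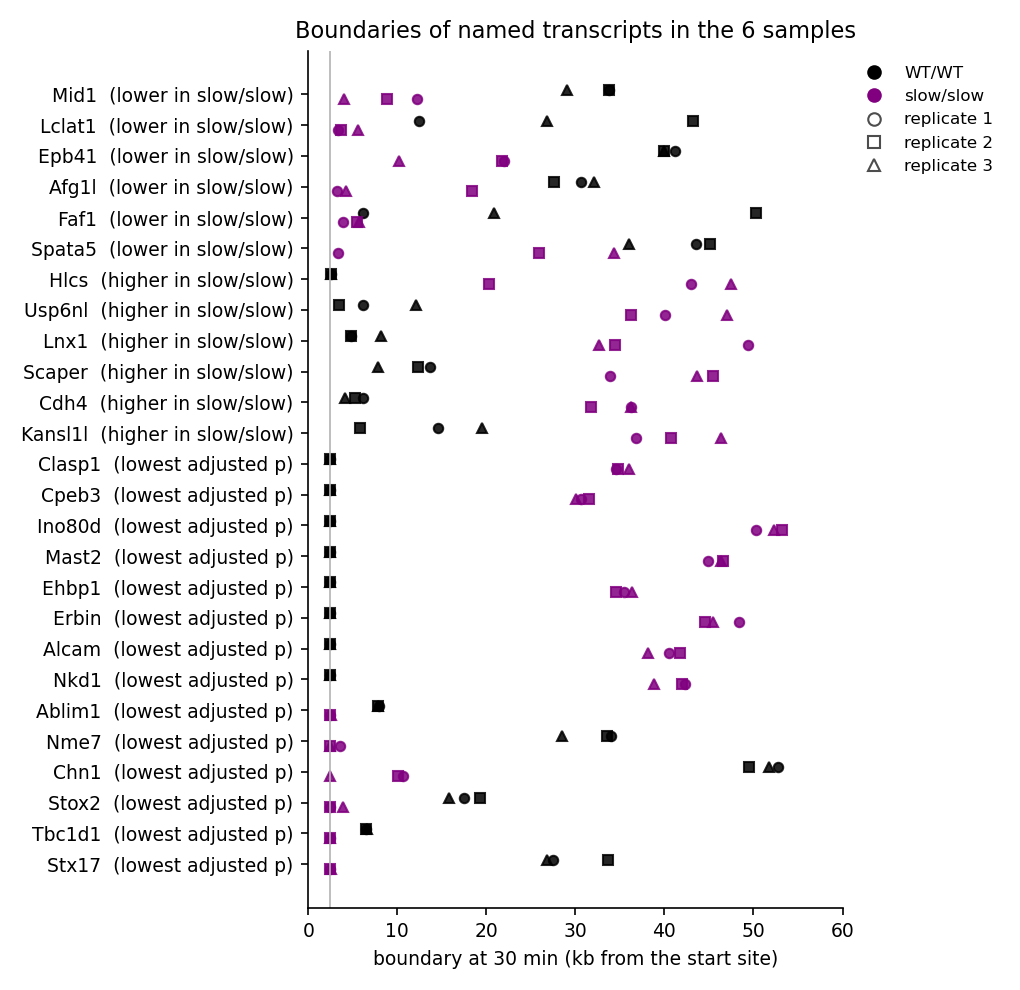
Boundaries at 30 min (horizontal axis, kb) of the named transcripts in the 3 WT/WT and 3 slow/slow samples, each point a replicate, with a grey line at 2.5 kb. Higher and lower refer to the rules on fronts in all 6 samples, and the transcripts with the lowest adjusted p were added after their values were seen.

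The genome where the fronts stood is shown for 2 of these transcripts, both called by limma, so that the positions can be found. Each line gives the 100 bases that end at the median boundary of a genotype, on the plus strand of GRCm38, which is the coding strand of both. Capitals mark bases outside the repeats masked in the assembly. Usp6nl (ENSMUST00000042503, chr2:6352733-6443494) had its WT/WT front in intron 1 and its slow/slow front in intron 2, both unmasked, with 53% and 52% GC. Mid1 (ENSMUST00000171433, chrX:169926951-170005736) had both in intron 1, with 45% GC and 19% masked at the WT/WT position and 33% GC and 55% masked at the slow/slow position.
Usp6nl, WT/WT median, chr2:6358833-6358932: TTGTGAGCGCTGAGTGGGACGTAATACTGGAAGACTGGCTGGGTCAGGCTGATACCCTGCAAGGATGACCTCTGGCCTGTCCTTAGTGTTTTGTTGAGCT
Usp6nl, slow/slow median, chr2:6392733-6392832: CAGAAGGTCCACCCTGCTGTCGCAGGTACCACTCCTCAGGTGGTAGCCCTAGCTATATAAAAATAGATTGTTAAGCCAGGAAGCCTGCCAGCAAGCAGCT
Mid1, WT/WT median, chrX:169960651-169960750: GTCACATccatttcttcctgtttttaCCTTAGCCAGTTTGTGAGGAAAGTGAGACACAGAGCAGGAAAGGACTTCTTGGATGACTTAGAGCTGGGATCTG
Mid1, slow/slow median, chrX:169935751-169935850: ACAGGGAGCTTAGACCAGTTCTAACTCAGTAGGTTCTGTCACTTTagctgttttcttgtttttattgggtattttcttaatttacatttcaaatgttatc

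For transcripts with fronts in a single genotype, the naming rule took those with the closest replicates, most of which lie within 2 kb of 2.5 kb. In slow/slow alone these were Cables1, which binds cyclin-dependent kinases, at 2.9 kb in all 3 samples, and the SUMO ligase Pias2 at 2.7 kb in all 3. The phospholipid flippase Atp8a1 had 3.8, 3.7 and 3.3 kb, Lrrc1 3.4, 2.7 and 3.4 kb, and the ubiquitin ligase Znrf2 3.7, 4.3 and 4.5 kb. None of these 5 passed limma's test. In WT/WT alone, Tbc1d1, a Rab GTPase-activating protein of glucose uptake, had 6.5, 6.5 and 6.6 kb (adjusted p = 0.011), and the actin-binding protein Ablim1 7.9, 7.7 and 7.7 kb (adjusted p = 0.00564). Both had boundaries at 2.5 kb in all slow/slow samples and were called nearer, though Tbc1d1 lost its call without WT/WT replicate 1 or 2 (adjusted p = 0.0542 and 0.0598). Tex15 and Plxdc2 were not called, with WT/WT means of 2.77 and 4.2 kb.

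The 5 transcripts with the smallest SD among those with a mean front above 20 kb in all 6 samples still varied widely. Radil, an effector of the GTPase Rap, had 26.3, 27.4 and 27.6 kb in WT/WT and 24.5, 29.4 and 35.7 kb in slow/slow. Ebf4, of a transcription factor family, had 25.8, 24.2 and 21 kb against 30.3, 17.0 and 36.5 kb. Grik5, a kainate receptor subunit, had 28.4, 47.4 and 44.0 kb against 43.7, 39.8 and 46.9 kb. The genotypes overlapped in these 3 genes. They also overlapped in the transcription factor gene Mef2a, with means of 29.8 kb and 20.6 kb, and in the casein kinase gene Csnk1g1, with 24.4 kb and 33.8 kb. None was called (adjusted p at least 0.668).

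Gene lists were described by the longest long transcript of each gene, beside all 3748 genes with a symbol that had one. Over all genes, 1030 (27.5%) were at 2.5 kb in all 6 samples, 362 had a front in all 3 WT/WT samples, 314 in all 3 slow/slow samples, and 84 in all 6. By limma 13 were farther and 7 nearer in slow/slow. No gene of the lists below was called by limma in either direction by that transcript, and 3 were called farther by a shorter long transcript.

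Regulators of pluripotency and of LIF, FGF and WNT signalling were mostly at 2.5 kb. Of 36 listed genes 22 had a long transcript, and 10 of these (45.5%) were at 2.5 kb in all 6 samples, among them Lifr, Cdh1, Gsk3b and Ptpn11. No gene had a front in all 3 WT/WT samples and 2 had one in all 3 slow/slow samples. Tet1, an enzyme that oxidises methylcytosine, was at 2.5 kb in each WT/WT sample and at 14.8, 11.3 and 8.0 kb in slow/slow. The nuclear receptor gene Esrrb was at 2.5, 22.5 and 3.6 kb against 3.3, 44.7 and 14.0 kb, so its replicates disagreed in both genotypes. The list's share at 2.5 kb was 86.4%, 81.8% and 86.4% in WT/WT and 68.2%, 81.8% and 68.2% in slow/slow, against 61.3%, 69.96% and 73.4% and 66.2%, 71.7% and 67.0% over all genes.

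Elongation factors and chromatin regulators stood mostly at 2.5 kb as well, as did all genes. Of 38 elongation factors and kinases 12 had a long transcript, 5 of them (41.7%) at 2.5 kb in all 6 samples, among them Cdk13, Cdc73, Rtf1 and Ell2. None had a front in all 3 samples of either genotype, and the list's share at 2.5 kb was 83.3%, 83.3% and 91.7% in WT/WT and 91.7%, 83.3% and 83.3% in slow/slow. Of 45 chromatin regulators 37 had a long transcript and 19 (51.4%) were at 2.5 kb in all 6, including the acetyltransferase gene Ep300, the methyltransferase genes Kmt2a and Ezh2, and the remodeller gene Smarca4. Their share at 2.5 kb was 70.3%, 89.2% and 89.2% in WT/WT and 75.7%, 83.8% and 83.8% in slow/slow. Over all genes it lay between 61.3% and 73.4% by sample. The deacetylase gene Hdac9 alone had a front in all 3 slow/slow samples, at 4.1, 4.3 and 4.2 kb, against 4.1, 2.5 and 2.5 kb in WT/WT. Kmt2c was at 2.5 kb in each WT/WT sample and at 44.7, 10.2 and 2.5 kb in slow/slow. Replicates of a genotype often split in this way, with a front in some and 2.5 kb in others. Shorter long transcripts of 2 listed genes were called farther. The methyltransferase gene Ehmt1 had 2.5, 2.5 and 4.1 kb in WT/WT and 42.1, 41.5 and 37.1 kb in slow/slow by ENSMUST00000114418 (adjusted p = 0.00248). The acetyltransferase gene Kat6b had 5.4, 2.5 and 2.5 kb against 24.4, 26.4 and 22.6 kb by ENSMUST00000112458 (adjusted p = 0.008).

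Synaptic and axon guidance genes with a long transcript had a median length of 608 kb. Of 48 listed genes 43 had a long transcript, of which 9 (20.9%) were at 2.5 kb in all 6 samples. A front in all 3 samples was found for 6 in WT/WT, 2 in slow/slow and 1 in all 6. That gene was Lrp1b, of the lipoprotein receptor family, with 16.2, 23.0 and 12.8 kb in WT/WT and 29.2, 31.9 and 37.7 kb in slow/slow, without overlap. Plxna4, a semaphorin co-receptor, had 11.1, 2.5 and 2.5 kb against 18.1, 20.6 and 14.7 kb. The neuregulin genes went the other way, Nrg3 with 20.8, 11.7 and 30.1 kb against 2.5, 2.5 and 10.7 kb and Nrg1 with 7.4, 8.4 and 11.9 kb against 2.5, 6.6 and 6.2 kb. Of the 43 list genes 2 were farther and 3 nearer without overlap, and of all 3748 genes 134 and 107 were. The list was not tested against all genes. By a shorter transcript, ENSMUST00000161804, Auts2 was called farther, with 4.2, 2.5 and 4.5 kb against 10.5, 9.6 and 10.8 kb (adjusted p = 0.0352).

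Of 5 genes, 4 that the study follows for elongation and Polr2a itself, 3 had a long transcript with 6 boundaries. Utrn, the gene of utrophin, was at 2.5 kb in all 6 samples. Itpr1, a calcium release channel of the endoplasmic reticulum, was at 2.9 kb in WT/WT replicate 1 and at 2.5 kb in the other samples. Ern1, a sensor of unfolded proteins, was at 2.5, 3.6 and 2.8 kb in WT/WT and at 2.5, 2.5 and 3.3 kb in slow/slow. The genotypes overlapped in each. Notch1 and Polr2a had no transcript that met the length and call criteria.

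Cell identity could not be judged from these values, since a boundary is a distance and not a level. Markers could only be counted as called or not. Of 8 ESC markers 4 had a boundary in all 3 samples at 30 min in each genotype. Of 14 markers of primitive endoderm, fibroblasts and neural cells, 9 had one in all 3 WT/WT samples and 3 in all 3 slow/slow samples. In WT/WT these other markers were thus called no less often than the ESC markers. By sample, 9, 10 and 9 of the 14 were called in WT/WT and 10, 3 and 7 in slow/slow. The low count rests largely on slow/slow replicate 2, the sample with the fewest calls. Over all 122968 transcripts, 52393, 55046 and 55029 had a call in WT/WT and 52749, 41989 and 53283 in slow/slow. A share by gene was not computed. The ESC markers Pou5f1, Sox2 and Klf2, whose longest transcripts span 4.75, 2.06 and 2.62 kb, had no boundary in any of the 6 samples. Of the other markers Sox17, Col1a1, Col1a2 and Sox1 had none. A missing call does not show that a gene is silent, and the part of calling in the results was not tested. From each marker list 1 gene had a long transcript with 6 boundaries, and neither was at 2.5 kb in all 6 samples.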

How the data were processed

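RNA labelled with 4sU after DRB release was sequenced by the authors. Reads were aligned to mm10 with Bowtie2, version 2.2.9 in the submitters' processing notes, and uniquely mapped reads outside rRNA were kept. The deposited boundary, a distance from the transcript start in bases, was called by the authors with published software, whose version, settings and annotation are not given in the sources used here. Boundaries were converted to kb. Per-sample shares and medians were compared with exact two-sided permutation tests. Single transcripts were tested with limma 3.58.1 (R 4.3.3) on kb over all transcripts with 6 boundaries that were not all equal, p-values being adjusted by Benjamini-Hochberg with 0.05 as the threshold. The fit was tested on simulated data with normal noise. Those data lack the many boundaries at exactly 2500 bases, so the fit was not tested for them. Python 3.11.15, NumPy 2.4.6, pandas 2.3.3, SciPy 1.17.1, pysam 0.24.0 and Matplotlib 3.10.9 were used. Exons came from GENCODE mouse release M21, in which 11006 of the 11042 transcripts were found, 10304 with the same coordinates. Sequences came from the RefSeq copy of GRCm38.

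Named transcripts, the longest eligible 1 of each gene, were list genes by their longest long transcript, the 6 largest rises and 6 largest falls without overlap among those with fronts in all 6 samples, the 5 with the smallest SD among those with fronts in a single genotype, in each direction, and the 5 with the smallest SD over all 6 samples with a mean above 20 kb. Predicted genes and clone names were left out. Some items that these rules name are not reported here. Lists covered genes followed by the study, pluripotency and signalling, elongation factors, chromatin regulators, synaptic and axon guidance genes, and cell type markers. Members and lists were chosen with earlier results of these data known. Alternatives were 1 transcript per gene or start site, at least 100 kb, other distance limits, means for medians, log2 values, calls in single samples, each replicate left out, and the replicate number as a block.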

Additional observations from a re-analysis of the deposited data

Results flagged for a closer look

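The genotypes differed in how the wave-front changed between 15 and 30 min. Over the 154 transcripts with a front in all 12 samples, the median front fell by 7.75 kb in WT/WT and by 0.3 kb in slow/slow, a difference of 7.45 kb. It stands out because the difference itself passed the threshold when genotype labels were permuted within each time (exact permutation test, two-sided, p = 0.025). It did not pass under 5 of 12 alternatives, with exact permutation p between 0.05 and 0.25. The cause was not tested.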

How the results depend on the processing

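The median boundary above 2.5 kb (differences of 3.05 to 4.83 kb), the median front over shared transcripts (1.65 to 6.02 kb) and the share above 30 kb (2.47 to 3.91 points) kept their direction under all 13, 13 and 11 alternatives run. The median front lost its separation for fronts above 10 kb (1.65 kb, exact permutation p = 0.7). Without WT/WT replicate 2 its difference was 4.92 kb (exact permutation p = 0.2), which does not show whether the groups overlapped. The difference in the share at 2.5 kb turned its sign with 1 transcript per gene (0.0264 points), without WT/WT replicate 3 (1.30), without slow/slow replicate 1 (0.0571) and with a boundary required in that sample only (0.209). The difference between the 15 to 30 min changes of the median front, slow/slow minus WT/WT, stayed positive in all 12 alternatives and passed the threshold in 7. It is no advance, as the front fell by 7.75 kb in WT/WT and by 0.3 kb in slow/slow. It was 6.03 kb for transcripts of at least 100 kb (exact permutation p = 0.105), and 14.6 kb for fronts above 10 kb, over 12 transcripts (exact permutation p = 0.055). Leaving out each sample in turn gave ranges of -4.30 to 1.30 points for the share at 2.5 kb, 3.05 to 4.27 kb for the median boundary above it, 2.63 to 6.02 kb for the median front, 6.53 to 17.0 points for the change in share, 5.37 to 12.8 kb for the difference between the changes of the front and 3.24 to 3.86 points for the share above 30 kb. The count of different boundaries by limma ranged from 70 to 244, with 41 to 223 farther and 14 to 77 nearer in slow/slow, and the farther calls made up 46.9% to 92.5%. It was 15 of 2753 tested with 1 transcript per gene (12 farther, 3 nearer), against 52 of 8360 transcripts of any length. On log2 values it was 218 of 8141 (170 and 48), against 517 of 27054 of any length. In a fit of the 276 transcripts with 6 fronts it was 17 (11 and 6, of which 5 were also called in the whole table). The count of transcripts with a front in all 6 samples was 601 without slow/slow replicate 2, 85 with 1 transcript per gene and 159 at 100 kb or more. With a sample left out the differences of Radil ran from -0.15 to 5.45 kb, of Ebf4 from -0.0167 to 9.73 kb and of Grik5 from -2.23 to 7.27 kb, the negative ones without slow/slow replicate 3 (Radil, Ebf4) and without WT/WT replicate 1 (Grik5). For these changes the cause was not tested. With replicate numbers entered as a block, differences kept their values, and limma called 0 transcripts farther and 0 nearer, while 476 long transcripts (5.85%) and 1192 of any length (4.41%) had an unadjusted p under 0.05. The changes of the front then differed by 7.45 kb (exact permutation p = 0.25, the smallest that 3 pairs allow). Deviations of samples sharing a number correlated at 0.0972, 0.0398 and 0.0569, so the numbers were not taken to pair the samples, although each sample correlated best with its own number, a hint from the data and not from the design. Depth is unknown, so uncertainty of single boundaries could not be assessed, and 3 samples a group limit an exact test of 1 value to p = 0.1.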
